A study of Mus musculus with 12 samples.

Results

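The 3 chains of complement C1q, encoded by C1qa, C1qb and C1qc, were followed across 12 orthotopic tumors of 4T1, a mouse mammary carcinoma line. They were the rows of the expression table whose symbol is C1qa, C1qb or C1qc, 3 of 55401 genes, and all 3 passed the filter on low values that left 15504 genes for testing. Each tumor grew in a Balb/c mouse injected with the same cells and gave 1 bulk RNA-seq library, with 3 tumors in each of 4 groups. The groups received a control isotype (IgG1-Fc, called control), a recombinant IL10-Fc protein (IL-10-Fc), a CSF1R antibody (aCSF1R) or BF10, a fusion of human interleukin-10 to the C terminus of the antibody against the colony stimulating factor 1 receptor. Dosing began at a tumor volume of 100 mm3. The labels give 6 doses, whereas other text of the study gives lower numbers, so the number behind these samples is uncertain. BALB/c mice of the study were 6 to 8 weeks old when obtained, per its methods. Replicate numbers are those of the sample titles, and nothing in the labels says that equal numbers mark a shared cage or day.

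C1q is the recognition part of the first component of the classical complement pathway. An A, a B and a C chain, each with a collagen-like stem and a globular head, form a heterotrimer, and several such trimers join into the mature molecule. C1q binds antibody in immune complexes, C-reactive protein and dying cells, and passes the signal to the proteases C1r and C1s. Unlike most complement proteins, which come from the liver, C1q is made largely by macrophages and related myeloid cells in tissues, and in tumors its genes are commonly used to mark one population of tumor-associated macrophages. Macrophages depend on signaling through CSF1R, which the aCSF1R antibody and BF10 both bind.

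The chains were chosen by their measured levels in these same libraries: C1qc and C1qa were already known, from earlier results, to be among the genes with the largest drop in aCSF1R against control. All values of the chains that involve the aCSF1R tumors are therefore a description of that choice and carry no test. The chains were tested between control, IL-10-Fc and BF10, and the comparisons with control share their control libraries with the comparison behind the choice. Genes of the lists below were also tested against aCSF1R. Those lists were chosen with earlier results of these data known, and their p-values do not allow for that choice.

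The 3 genes lie next to each other on the minus strand of mouse chromosome 4 (GRCm38, GENCODE M21), in a cluster of 18.7 kb. C1qb (ENSMUSG00000036905) spans 136880129 to 136886187, C1qc (ENSMUSG00000036896) spans 136889804 to 136893065, and C1qa (ENSMUSG00000036887) spans 136895917 to 136898803. The gaps measure 3.62 kb between C1qb and C1qc and 2.85 kb between C1qc and C1qa. Each gene has a protein-coding transcript of 3 exons, which measures 1040 nt in C1qa, 1088 nt in C1qb and 1203 nt in C1qc. Their GC content is also close, at 59.5%, 57.4% and 57.5%. C1qc has a further annotated transcript of 946 nt in 2 exons without a coding region.

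Because the 3 neighboring genes were low together in aCSF1R, the promoters of C1qb and C1qc are shown, from 250 bases before to 50 bases after the start site, as given by RefSeq on GRCm38.p6. The table matched 2 of the 3 chains and held no entry for C1qa. The C1qb window is chr4:136886151-136886450 and the C1qc window is chr4:136892865-136893164, both written 5′ to 3′ on the minus strand. Capitals mark the core letters of the c-Maf recognition element (GCTGAC, or GTCAGC where it lies on the opposite strand) and those of the PU.1 site (GAGGAA, or TTCCTC on the opposite strand), both searched on both strands. c-Maf and PU.1 are transcription factors found in macrophages. The motifs were chosen with the sequences in view.
C1qb: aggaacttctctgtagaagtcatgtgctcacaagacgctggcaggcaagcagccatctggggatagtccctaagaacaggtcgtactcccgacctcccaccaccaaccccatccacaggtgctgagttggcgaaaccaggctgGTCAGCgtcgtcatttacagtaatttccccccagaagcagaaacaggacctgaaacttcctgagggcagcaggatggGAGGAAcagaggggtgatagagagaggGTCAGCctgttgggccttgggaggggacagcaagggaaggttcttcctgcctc
C1qc: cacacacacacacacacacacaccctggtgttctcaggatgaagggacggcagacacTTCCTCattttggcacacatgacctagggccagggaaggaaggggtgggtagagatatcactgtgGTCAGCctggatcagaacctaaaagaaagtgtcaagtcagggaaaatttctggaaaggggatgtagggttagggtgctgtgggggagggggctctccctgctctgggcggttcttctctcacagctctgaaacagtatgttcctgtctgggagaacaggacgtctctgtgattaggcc
GCTGAC was present 2 times in the C1qb window, at -107 and -3 bases from the start site, and 1 time in the C1qc window, at -128. GAGGAA was present 1 time in each, at -30 in C1qb and at -193 in C1qc. Positions are from the RefSeq start site. The GENCODE span of C1qc given above reaches to 136893065, upstream of that site, so the match at -128 lies inside the span. Of 32851 promoter windows of the same length, 15.7% held GCTGAC and 28.3% held GAGGAA, so neither match is rare. The longer form TGCTGAC, held by 4.67% of windows, and TATAAA, held by 13.6%, matched in neither. A match of letters is a description of the sequence and not a binding site.

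Levels are given in TPM, which are scaled for gene length and sum to 1000000 in every library. In the 9 libraries of control, IL-10-Fc and BF10, the chains were among the more abundant transcripts of the tumor. By level within a library, C1qa ranked between 171 and 307, C1qb between 357 and 549, and C1qc between 160 and 414. In aCSF1R the ranks lay between 2231 and 4017 for C1qa, between 3342 and 6220 for C1qb and between 3073 and 5163 for C1qc.

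Before the single values, 1 feature of the libraries has to be named. The sums of the deposited FPKM values fell into 2 sets that did not follow treatment. In 5 libraries (BF10 6, aCSF1R 8, control 4, control 7 and IL-10-Fc 7) the sum was above 700000, and in the other 7 it was below. The labels name no batch that would account for the sets, and the split was noticed in the data. After scaling to TPM, 59.2% of the genes tested differed between the sets with treatment held constant (limma, adjusted p under 0.05 and at least 1.5-fold), 54% lower and 5.23% higher in the higher-sum set, so differences between groups are also given within each set. Depth, estimated from the steps between low FPKM values, was similar in all libraries, at 30.6 to 35.5 times 1000000 reads. The mammary carcinoma label was matched by keratin 8, with 239 to 1090 TPM over the 12 libraries, and by Epcam, an epithelial adhesion molecule, with 31.9 to 89.5 TPM.

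C1qa, the A chain, was at 636, 623 and 823 TPM in control 4, 5 and 7. BF10 3, 6 and 7 held 496, 589 and 572 TPM, and IL-10-Fc 2, 4 and 7 held 543, 545 and 459 TPM. The aCSF1R libraries 4, 6 and 8 held 76.1, 49.2 and 20.6 TPM. All 3 control libraries thus lay above all IL-10-Fc and BF10 libraries, by a small margin, and the aCSF1R libraries lay far below the rest. The group means were 694 ± 112, 516 ± 48.9, 552 ± 49.5 and 48.6 ± 27.8 TPM (SD, n = 3 each) in control, IL-10-Fc, BF10 and aCSF1R.

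C1qb, the B chain, was at 227, 387 and 298 TPM in the control libraries. IL-10-Fc held 366, 351 and 252 TPM, and BF10 held 336, 298 and 369 TPM, so the 3 groups overlapped fully. In aCSF1R it was at 51.8, 34.0 and 9.54 TPM. The means were 304 ± 80.2 TPM for control, 323 ± 61.8 for IL-10-Fc, 334 ± 35.8 for BF10 and 31.8 ± 21.2 for aCSF1R (SD, n = 3 each). Without aCSF1R, control thus had the lowest mean of C1qb and the highest of C1qa, but in C1qb no neighbors in this order differed beyond their spread.

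C1qc, the C chain, was at 632, 428 and 856 TPM in control, the widest range of the 3 chains there. IL-10-Fc held 397, 384 and 459 TPM and BF10 held 354, 634 and 425 TPM. In aCSF1R it was at 50.2, 31.9 and 29.5 TPM. Group means were 638 ± 214, 413 ± 40.1, 471 ± 145 and 37.2 ± 11.3 TPM (SD, n = 3 each) in control, IL-10-Fc, BF10 and aCSF1R. As with C1qb, the control, IL-10-Fc and BF10 groups overlapped.

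**Figure D1:**
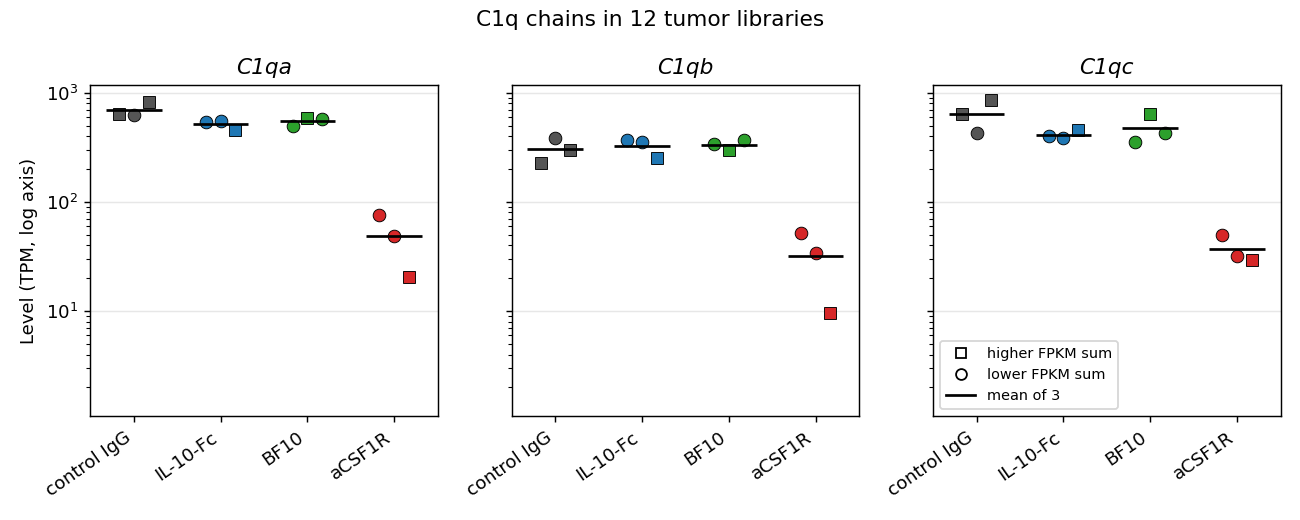
Level of each C1q chain in every library (TPM, log axis) by group, with squares for the 5 libraries of higher FPKM sum, circles for the other 7 and a bar at the mean of 3. The aCSF1R libraries, between 9.54 and 76.1 TPM, lie below all 9 others, which lie between 227 and 856 TPM.

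The distance between the aCSF1R tumors and the others can be read from the nearest libraries. The lowest of the 9 other libraries was above the highest aCSF1R library by 6.04-fold for C1qa, 4.39-fold for C1qb and 7.05-fold for C1qc. For all 3 chains no aCSF1R library overlapped control, as for 3.68% of all genes tested in that direction. Against control the fitted difference on log2(TPM + 1) was -3.98 (SE 0.37) for C1qa, -3.47 (SE 0.48) for C1qb and -4.05 (SE 0.31) for C1qc, which corresponds to 15.8-, 11.1- and 16.5-fold lower. By the size of the drop C1qc was number 6, C1qa number 7 and C1qb number 14 among the genes tested. In this comparison 0.568% of all genes passed the threshold, each of them lower in aCSF1R. In bulk tissue, fewer cells that express C1q and less C1q RNA in each cell cannot be told apart.

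The aCSF1R tumors were not alike. From the highest to the lowest library the range was 5.43-fold for C1qb and 3.70-fold for C1qa, against 1.70-fold for C1qc. In aCSF1R 8, the only aCSF1R library of the higher-sum set, all chains had their lowest level of the 12 libraries, but C1qc was close to its level in aCSF1R 6. The lowest value, that of C1qb in aCSF1R 8, corresponds to an estimated 276 reads (95% exact Poisson interval 244 to 311, which covers counting error only), so the gap to the other aCSF1R libraries is wider than counting error. Within the lower-sum set, where control had 1 library, the difference between aCSF1R and control was -3.33, -3.18 and -3.39 for C1qa, C1qb and C1qc. Within the higher-sum set, where aCSF1R had 1 library, it was -5.07, -4.63 and -4.59.

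The question for BF10, which carries the same antibody, was where its tumors lay between these levels. They lay with control and IL-10-Fc. On log2(TPM + 1), BF10 was above aCSF1R by 3.66 (SE 0.37) for C1qa, 3.63 (SE 0.48) for C1qb and 3.62 (SE 0.31) for C1qc, or 12.6-, 12.4- and 12.3-fold. IL-10-Fc was above aCSF1R by 3.56, 3.57 and 3.47. These comparisons share the aCSF1R libraries and are given as values only. The groups did not overlap for any chain, as for 4.33% of all genes in the higher direction for BF10 and 5.9% for IL-10-Fc. By the threshold used for tests, 0.735% of all genes were higher in BF10 than in aCSF1R, and 0.542% in IL-10-Fc.

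Against control, 0 of the 3 chains passed the threshold in BF10, and 0% of all genes did. On log2(TPM + 1) C1qa differed by -0.32 (SE 0.37, adjusted p 0.788), C1qb by 0.16 (SE 0.48, adjusted p 0.866) and C1qc by -0.43 (SE 0.31, adjusted p 0.788) in limma. None of the 3 had an unadjusted p under 0.05, as against 234 of all genes tested. The 95% intervals reached from -1.15 to 0.51 for C1qa, from -0.91 to 1.23 for C1qb and from -1.12 to 0.26 for C1qc, so for C1qa a level between 0.452 and 1.42 times that of control lay within the error. All 3 BF10 libraries were below all 3 control libraries in C1qa, as for 1.17% of the genes tested. Within the lower-sum set the differences were -0.23, -0.14 and -0.14 for C1qa, C1qb and C1qc, and within the higher-sum set -0.30, 0.19 and -0.21. The sign of C1qb thus differed between the sets.

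IL-10-Fc gave a similar picture. Against control, 0 of 3 chains passed, and 0.00645% of all genes did. C1qa differed by -0.42 (SE 0.37, adjusted p 0.738), C1qb by 0.10 (SE 0.48, adjusted p 0.913) and C1qc by -0.57 (SE 0.31, adjusted p 0.738) in limma, and none had an unadjusted p under 0.05, whereas 224 of all genes did. C1qa was lower in all 3 IL-10-Fc libraries than in all control libraries, as for 1.78% of the genes tested. For C1qa, C1qb and C1qc the differences were -0.19, -0.11 and -0.13 within the lower-sum set and -0.65, -0.044 and -0.68 within the higher-sum set. With the library set as a term and median-of-ratios scaling, added after seeing the data, C1qa at -0.69 (unadjusted p 0.0375) and C1qc at -0.62 (unadjusted p 0.0345) had intervals below 0, but their adjusted p was 0.943 in limma. Between BF10 and IL-10-Fc the chains differed by 0.10, 0.06 and 0.15 for C1qa, C1qb and C1qc, with an adjusted p of 1 for each in limma. In that comparison 0 of 3 chains and 0% of all genes passed, and 42 genes had an unadjusted p under 0.05, none of them a chain. The intervals were -0.73 to 0.93, -1.01 to 1.13 and -0.54 to 0.84, so for C1qa a level in BF10 between 0.604 and 1.90 times that in IL-10-Fc lay within the error.

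Control had 2 of its 3 libraries in the higher-sum set and the other groups 1 of 3. On the TPM scale the median difference of all genes against control was not at 0. It was 0.24 for aCSF1R, 0.32 for BF10 and 0.35 for IL-10-Fc. Relative to that median, C1qa, C1qb and C1qc stood at -0.64, -0.15 and -0.74 in BF10. They stood at -0.77, -0.25 and -0.93 in IL-10-Fc. In aCSF1R they stood at -4.22, -3.71 and -4.28. C1qb thus turned from above to below control in BF10 and IL-10-Fc, while the other chains kept their direction. With the library set as a term, the differences in BF10 against control were -0.44 (SE 0.34), -0.12 (SE 0.33) and -0.32 (SE 0.27). Each had an adjusted p of 0.993 in limma. The median of all genes against control was then 0.0068 for aCSF1R, 0.068 for BF10 and 0.10 for IL-10-Fc.

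**Figure D2:**
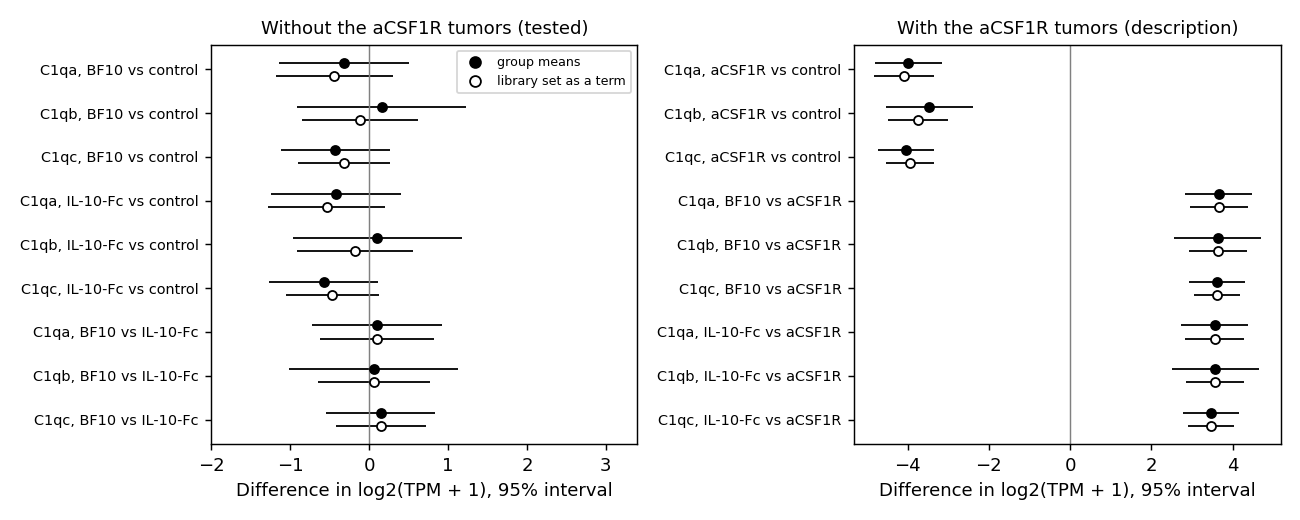
Fitted difference of each chain on log2(TPM + 1) with its 95% interval, from group means (filled) and with the library set as a term (open). Every interval of a comparison without aCSF1R includes 0, and no interval of a comparison with aCSF1R does.

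The ratio between the chains within 1 library does not depend on how the library is scaled. A heterotrimer takes up the A, B and C chains in equal numbers. In the 7 lower-sum libraries the proportions of the transcripts lay in a narrow range. C1qc over C1qb was between 0.936 and 1.15 there, C1qa over C1qb between 1.45 and 1.61, and C1qa over C1qc between 1.35 and 1.54. The aCSF1R libraries 4 and 6, with far lower levels, had 0.970 and 0.936 for C1qc over C1qb, 1.47 and 1.45 for C1qa over C1qb and 1.51 and 1.54 for C1qa over C1qc. In all 3 ratios these 2 libraries lay just outside the other 5 of the set. Those held 1.05 to 1.15 for C1qc over C1qb, 1.48 to 1.61 for C1qa over C1qb and 1.35 to 1.46 for C1qa over C1qc. This difference was not tested. The chains were thus lower by a similar, but not equal, factor in these 2 tumors.

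In the 5 higher-sum libraries the proportions were different. C1qc over C1qb was 1.82 in IL-10-Fc 7, 2.13 in BF10 6, 2.78 and 2.87 in control 4 and 7, and 3.10 in aCSF1R 8. C1qa over C1qb was between 1.82 and 2.79, and C1qa over C1qc between 0.696 and 1.01. None of the 3 ratios overlapped between the sets, and in each of the 4 treatment groups the higher-sum library or libraries lay on the same side. As a share of the summed level of the chains, C1qb made up 26.9% to 29.6% in the lower-sum and 15.1% to 21.6% in the higher-sum libraries, and C1qc 27.7% to 31.1% and 39.2% to 49.5%.

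**Figure D3:**
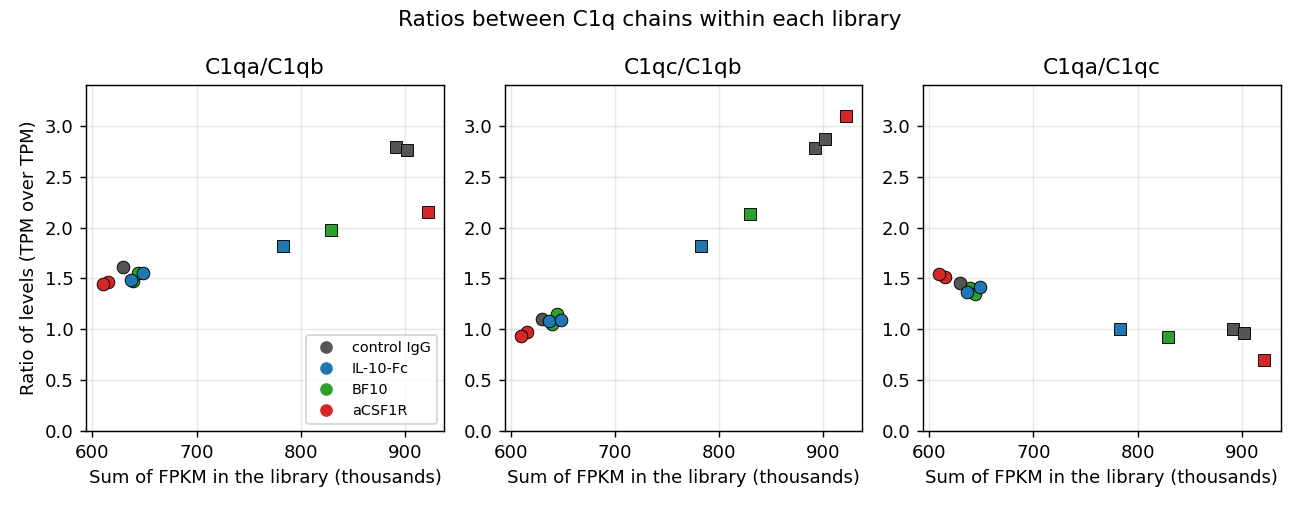
Ratio between the levels of 2 chains within each library (TPM over TPM) against the sum of FPKM of the library, colored by group, with circles for lower-sum and squares for higher-sum libraries. The 7 lower-sum libraries lie together, with C1qc over C1qb between 0.936 and 1.15, and the 5 higher-sum libraries lie apart, between 1.82 and 3.10, in all 4 groups.

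The ratios were then compared by treatment. Over control, IL-10-Fc and BF10 the two-sided exact permutation test of the spread between groups (1680 arrangements, smallest possible p 0.00357) gave p = 0.118 for C1qa over C1qb, 0.389 for C1qc over C1qb and 0.918 for C1qa over C1qc, and 0.354, 0.584 and 0.918 after adjustment over the 3 ratios. This test does not take the library set into account, which all 3 ratios followed. With labels permuted within each set only (360 arrangements, smallest possible p 0.00556, added after seeing the data), the exact test gave p = 0.0278, 0.0889 and 0.206, and 0.0833, 0.133 and 0.206 after adjustment. In the higher-sum set C1qa over C1qb was 2.79 and 2.76 in control, 1.98 in BF10 and 1.82 in IL-10-Fc, so control lay above the others, but no ratio passed after adjustment. In the fit with the set as a term, C1qb differed in the higher-sum libraries by -0.84 (SE 0.24, adjusted p 0.00904 in limma) on log2(TPM + 1), C1qa differed by -0.35 (SE 0.24) and C1qc by 0.32 (SE 0.19), while the median of all genes was -0.68. With median-of-ratios scaling, which moved that median to -0.02, C1qc was higher by 1.19 (SE 0.18), C1qa by 0.52 (SE 0.21) and C1qb by 0.02 (SE 0.19). On that scale 43.1% of all genes differed between the sets, 23.4% higher and 19.7% lower, so a difference there is common. Which chain appears to move thus depends on the scaling, whereas the change of their ratio does not.

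The macrophage content of the tumors was followed with a list of 12 marker genes. In aCSF1R against control, all 12 were lower in the fitted value, with a median of -2.08 on log2(TPM + 1) against 0.24 for all genes, and 4 passed the threshold. These were Msr1, a scavenger receptor, at -3.75 (adjusted p 6.40e-05), Fcgr1, the high-affinity Fc receptor for IgG, at -3.01 (adjusted p 0.000459), Mrc1, the mannose receptor, at -2.96 (adjusted p 0.00111) and Adgre1, which encodes F4/80, at -2.05 (adjusted p 0.0492), all in limma. With the set as a term 10 of the 12 passed as lower, where 1.93% of all genes did. Their summed level was 81.4 to 785 TPM in aCSF1R, 918 to 2154 in control, 1134 to 2643 in IL-10-Fc and 1090 to 3207 in BF10, and no marker was at 0 in all libraries. A large part of these sums was Apoe alone. It held 48.4 to 675 TPM in aCSF1R, 506 to 1687 in control, 705 to 2094 in IL-10-Fc and 658 to 2395 in BF10, so aCSF1R and control overlapped in it. Csf1r, the gene of the receptor, was at 20.6, 14.1 and 1.26 TPM in aCSF1R and at 18.8, 92.7 and 38.4 TPM in control, so the groups overlapped in this gene. They did so across the library sets only: within the lower-sum set 20.6 and 14.1 TPM stood against 92.7 TPM, and within the higher-sum set 1.26 TPM against 18.8 and 38.4 TPM. Against control 0 of the 12 passed in either BF10 or IL-10-Fc, where 0% and 0.00645% of all genes did. The median of the list was 0.49 in each, beside 0.32 and 0.35 for all genes.

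C1q was then set against these markers within each library, as the mean log2(TPM + 1) of the chains minus that of the list. The difference was 4.02 ± 0.43 in control, 3.39 ± 0.25 in IL-10-Fc and 3.42 ± 0.73 in BF10 (SD, n = 3 each). The two-sided exact permutation test between these groups gave p = 0.325 (smallest possible 0.00357). The measure followed the library set: the 4 higher-sum libraries of these groups lay between 3.63 and 4.37 and the 5 lower-sum libraries between 2.69 and 3.54. With labels permuted within each set only (360 arrangements, smallest possible p 0.00556, added after seeing the data), the exact p was 0.372. In aCSF1R it was 2.22 ± 0.13 (SD, n = 3), with all 3 libraries, at 2.07 to 2.31, below the 2.69 to 4.37 of the other 9. As the chains were chosen for their low level in aCSF1R, this is a description and shows nothing particular to C1q. The distance depended on the pseudocount, which narrows differences of low genes: with 0.1 in place of 1 the aCSF1R libraries lay between 2.28 and 3.05 and the others between 2.74 and 4.50, and they overlapped. The BF10 libraries 3, 6 and 7 lay at 2.69, 4.15 and 3.42. In BF10 3 the marker list was highest of all 12 libraries and the neutrophil gene S100a8 was at 6522 TPM, against 143 to 1363 TPM elsewhere, and the part of this in the result was not tested.

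**Figure D4:**
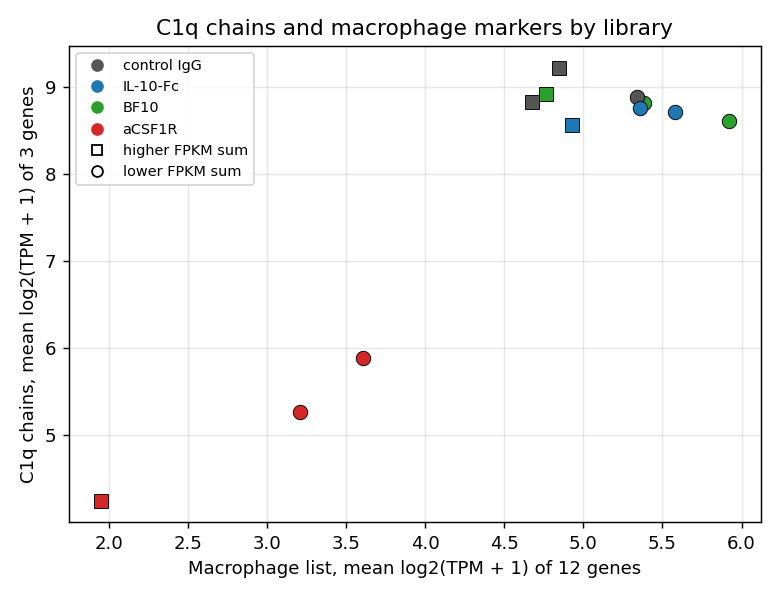
Mean log2(TPM + 1) of the 3 chains against that of the 12 macrophage markers in each library, colored by group, with squares for higher-sum libraries. The 9 libraries of control, IL-10-Fc and BF10 lie within 8.56 to 9.22 on the C1q axis, and the aCSF1R libraries lie between 4.25 and 5.89.

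The other cell types gave few calls. Of 11 marker lists, 9 had no gene past the threshold in any of the 6 comparisons: neutrophil, dendritic cell, T cell, NK cell, B cell, fibroblast, endothelial, epithelial and adipocyte. Over all genes tested, at most 0.00645% passed in a comparison without aCSF1R, and 0.542% to 0.735% in one with it. A short list with no call thus says little about its cells. Beside the macrophage list, the monocyte list had 1, Ccr2, the receptor for monocyte chemokines, lower in aCSF1R than in control by -2.57 (adjusted p 0.00137 in limma). The fibroblast list, whose cells make C1r and C1s, summed to 558 to 2851 TPM in aCSF1R and 499 to 1768 TPM in control.

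The remaining genes of the pathway were taken from 6 lists with 65 genes, of which 53 were tested. Against control, 2 passed in aCSF1R, both lower, and 0 passed with either BF10 or IL-10-Fc. Against aCSF1R, 3 were higher in BF10 and 2 in IL-10-Fc. Over all genes tested, 0.568% were lower in aCSF1R than in control, and 0.735% and 0.542% were higher in BF10 and IL-10-Fc than in aCSF1R. In BF10 against IL-10-Fc it was 0.

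The C1 proteases and their inhibitor, which act next to C1q in the same complex, did not share its drop. None of the 5 passed in any comparison. Serping1, the C1 inhibitor, was at 47.5, 65.8 and 34.7 TPM in control and at 262, 145 and 27.6 TPM in aCSF1R, the last of these below every control library. C1s1, which encodes the protease C1s, was at 35.6, 36.7 and 22.5 TPM in control and at 118, 82.1 and 50.5 TPM in aCSF1R. IL-10-Fc held 91.9, 129 and 84.4 TPM of C1s1 and BF10 held 157, 38.2 and 110 TPM, so the control tumors were the lowest of the 12. All libraries lay above all control libraries for 4.75% of the genes tested in IL-10-Fc, 2.36% in BF10 and 1.61% in aCSF1R. Against control, C1s1 differed by 1.32 (SE 0.49, adjusted p 0.893) in aCSF1R, by 1.46 (SE 0.49, adjusted p 0.788) in BF10 and by 1.66 (SE 0.49, adjusted p 0.738) in IL-10-Fc in limma. C1ra, which encodes C1r, ranged from 17.9 to 43.9 TPM in control and from 18.1 to 91.4 TPM in aCSF1R. All 5 genes were lower in the higher-sum set on the TPM scale, where 54% of all genes were. With median-of-ratios scaling 1 of them was so, where 19.7% of all genes were.

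The components cleaved after C1 gave 0 calls of 5 as well. C3, the central component, was at 19.7, 52.7 and 50.8 TPM in control and at 170, 213 and 24.8 TPM in aCSF1R. C4b, which C1s cleaves, ranged from 39.1 to 61.6 TPM in control and from 16.5 to 120 TPM in aCSF1R. Within the lower-sum set aCSF1R held 120 and 89.4 TPM of C4b against 39.1 TPM in control. Within the higher-sum set it held 16.5 TPM against 42.7 and 61.6 TPM, so the direction differed between the sets. Against control the list had a median of 0.63 in aCSF1R, 0.61 in BF10 and 1.06 in IL-10-Fc. The median of all genes was 0.24, 0.32 and 0.35, and these medians do not take the library set into account. The transcripts of C1q were thus low in the aCSF1R tumors while those of its protease partners were not shown to be.

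Among 12 genes for receptors and binding partners of C1q, 10 were tested and 1 passed. Lair1, an inhibitory collagen receptor of leukocytes that binds C1q, was at 23.6, 18.4 and 23.9 TPM in control. The aCSF1R libraries held 2.19, 1.53 and 1.91 TPM, IL-10-Fc held 23.7, 22.9 and 26.3 TPM and BF10 held 32.7, 30.6 and 26.8 TPM. Lair1 differed by -2.996 (SE 0.23, adjusted p 0.000212) in aCSF1R against control in limma, and was higher than aCSF1R by 3.43 (adjusted p 0.000127) in BF10 and by 3.14 (adjusted p 0.000317) in IL-10-Fc. All 3 BF10 libraries lay above all control libraries, as for 2.36% of the genes tested, but the difference of 0.44 (SE 0.23, adjusted p 0.788) did not pass. The broadly expressed partners were not called: C1qbp, a mitochondrial protein that binds the globular heads, was between 103 and 190 TPM over all libraries, and Itgb1, the integrin beta 1 chain, between 567 and 856 TPM. Calr and Lrp1 of the same list varied more, from 155 to 877 TPM and from 48.9 to 432 TPM.

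The C1q domain occurs in many secreted proteins that share the globular head but are no complement components. Of 25 such genes, 15 were tested and none passed in any comparison of group means. Col8a1, a short-chain collagen, ranged from 19.4 to 81.8 TPM in control and from 19.3 to 113 TPM in aCSF1R. Emilin2, an elastic fiber protein, ranged from 24.2 to 54.6 TPM in control and from 6.90 to 35.1 TPM in aCSF1R. With the library set as a term Emilin2 was higher than aCSF1R by 1.63 (adjusted p 0.00518) in BF10 and by 1.55 (adjusted p 0.00894) in IL-10-Fc in limma, where 2.77% and 2.12% of all genes were higher. The median of the list in aCSF1R against control was 0.23, beside 0.24 for all genes. In aCSF1R against control, 10 of the 15 fitted values were above 0 and 5 below.

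Among 8 myeloid transcription factors, 1 passed in aCSF1R against control. Tfec, a relative of MITF expressed in macrophages, was at 9.26, 6.97 and 8.50 TPM in control and at 1.01, 1.07 and 0.998 TPM in aCSF1R, a difference of -2.18 (SE 0.25, adjusted p 0.00249 in limma). Spi1, which encodes PU.1, was at 23.2, 46.7 and 33.6 TPM in control and at 13.9, 8.96 and 4.47 TPM in aCSF1R. Its difference of -1.87 (SE 0.44, adjusted p 0.161) did not pass against control, while BF10 was above aCSF1R by 2.62 (SE 0.44, adjusted p 0.0205 in limma). When the library set entered the fit, which called 1.93% of all genes lower in aCSF1R than in control, 4 of the 8 were lower, among them Tfec at -2.17, Spi1 at -2.13 and Maf, which encodes c-Maf, at -1.31, with adjusted p-values of 0.000164, 0.0027 and 0.024 in limma. The median of the list was -1.11 without that term.

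C1q also helps phagocytes to take up dying cells, and of 10 other genes of this process none passed in any comparison. Axl, a receptor tyrosine kinase, was between 185 and 370 TPM over all 12 libraries. Mfge8, a bridging protein, ranged from 47.2 to 175 TPM in control and from 37.7 to 181 TPM in aCSF1R. When the library set entered the fit, 1 gene was lower in aCSF1R than in control, where 1.93% of all genes were. This was Stab1, a scavenger receptor, at -1.97 (adjusted p 0.0487 in limma). Mertk, a receptor tyrosine kinase of phagocytes, was then higher in BF10 than in aCSF1R by 1.06 (adjusted p 0.0297 in limma), where 2.77% of all genes were higher.

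**Figure D5:**
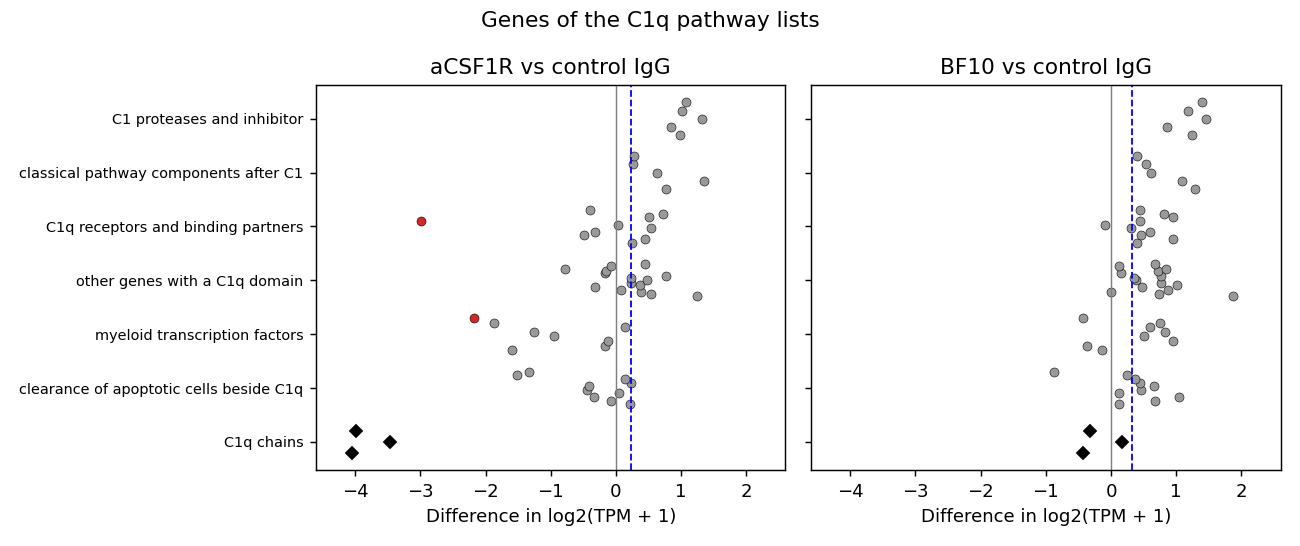
Difference on log2(TPM + 1) against control for each tested gene of the 6 lists (circles, red where past the threshold) and the C1q chains (diamonds), in aCSF1R and in BF10, with the median of all genes as a dashed line. In aCSF1R the chains lie between -4.05 and -3.47, beyond Lair1 at -2.996 and Tfec at -2.18, and in BF10 no gene is past the threshold.

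The genes next to the cluster did not share the drop. Of the 5 protein-coding genes on each side, 5 of 10 passed the filter on low values, and 0 of these had an adjusted p under 0.05 in aCSF1R against control in limma. Ephb2, an Eph receptor 44.1 kb away on the side of lower coordinates, was between 1.26 and 17.1 TPM over all libraries. Cdc42, a small GTPase 421 kb away on the other side, was at 308 to 356 TPM in control and 297 to 306 TPM in aCSF1R, with a difference of -0.14 (adjusted p 0.893). Kdm1a, Luzp1 and Zbtb40 differed by 0.70, 0.24 and 0.24, and Tex46, Lactbl1, Epha8, Wnt4 and Cela3a did not pass the filter.

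The genes whose pattern was most like the mean of the chains were taken by Pearson's r of log2(TPM + 1), as a description. Over all 12 libraries these were Aif1, which encodes IBA1 (r = 0.991), Tbxas1, the thromboxane synthase (0.989), Hpgds, the hematopoietic prostaglandin D synthase (0.989), Mrc1 (0.988), Fcgr1 (0.984), Ms4a6c (0.980), Rgs10, a regulator of G protein signaling (0.979), and Nxpe5 (0.979). Aif1 was at 7.70 to 14.9 TPM in aCSF1R and 89.7 to 139 TPM in the other libraries, and these r values rest on that gap between aCSF1R and the rest. Over the 9 libraries without aCSF1R the list was Ccl17, a ligand of CCR4 (0.961), Rfesd (0.912), Armc3 (0.904), Gm20703 (0.901), BC035044 (0.900), Lilra5, a leukocyte receptor (0.896), P2ry14, a receptor for UDP sugars (0.888), and Zfp951 (0.885). The lists shared 0 of 8 genes. Across these 9 libraries the chains ranged over only 1.79-fold in C1qa, 1.70-fold in C1qb and 2.42-fold in C1qc.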

How the data were processed

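Bulk RNA-seq of 12 tumors was analysed. Per the study's methods, stranded libraries from polyadenylated RNA were sequenced on a NextSeq instrument and aligned to mm10 with GRCm38.101. The submitters' processing notes name STAR 2.7.5a, RSEM 1.3.3 and DESeq2 1.28.0. The authors deposited FPKM values with 2 decimals for 55401 genes, and the program that made them was not given in the sources used here. Their 4 tables of comparisons hold fold changes and p-values and were not used.

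All columns were matched to samples by name, and 0 were left unmatched. FPKM were rescaled to a sum of 1000000 per library (TPM), genes with at least 1 TPM in at least 3 libraries were kept (15504 of 34194 above 0), and log2(TPM + 1) was fitted with limma 3.58.1 (R 4.3.3, eBayes with trend) with 4 group means over 12 libraries. This scale understates the change of low genes. Adjusted p-values are Benjamini-Hochberg over all genes tested. A gene passed the threshold at an adjusted p under 0.05 and at least 1.5-fold. The script was tested on simulated data with the same spread for every gene and no library-set effect, which does not give the error rates in these data. No count model was used, since FPKM are normalized. Reads were estimated from FPKM steps, taking the transcript length less the read length of 75 plus 1 as the effective length. P-values measure the spread between single tumors, taken as separate mice.

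Ratios were tested by exact permutation of the group labels, over all libraries without aCSF1R and within library sets. The chains, the lists and the library sets were chosen with earlier results of these data known. Named genes were the chains, of each list the genes past the threshold (at most 4, largest first) or, if none passed, the 2 to 4 with the highest mean TPM, 5 neighbors on each side and the 8 most like genes. Members of lists shown beyond this rule were chosen after their values were seen. These were Csf1r, Apoe, Maf, Stab1, Mertk, C1qbp, Itgb1, Calr, Lrp1, S100a8, Epcam and Krt8. Alternatives were the pseudocount, 2 other scalings, no filter, a replicate block, the library set and leaving out each library. The values of 1 listed gene are not reported here.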

Additional observations from a re-analysis of the deposited data

How the results depend on the processing

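Of 3 chains, 0 passed the threshold in BF10 or IL-10-Fc against control, or in BF10 against IL-10-Fc, in all 60 counts under the alternatives. Each alternative was counted once per comparison. Few of all genes passed there either, at most 3 higher and 1 lower of 15504, in IL-10-Fc against control with the library set as a term. A count of 0 of 3 thus says little about the chains. The lowest adjusted p of a chain in limma was 0.318 (C1qc, IL-10-Fc against control, range up to 1). The direction of C1qb was not stable. In BF10 against control it was 0.16 and became -0.025 with FPKM without rescaling, -0.21 with median-of-ratios scaling, -0.12 with the library set as a term, -0.20 with both and -0.14 in the lower-sum libraries. In IL-10-Fc against control it was 0.10 and became, under the same alternatives, -0.11, -0.34, -0.18, -0.33 and -0.11, and -0.044 in the higher-sum libraries. In BF10 against IL-10-Fc the lower-sum libraries gave -0.031 for C1qa, -0.025 for C1qb and -0.010 for C1qc. Leaving out each library gave -0.029 to 0.35 for C1qb in BF10 and -0.091 to 0.29 in IL-10-Fc against control, each below 0 without control 4, and, in BF10 against IL-10-Fc, -0.11 to 0.16 for C1qb (below 0 without BF10 7 or IL-10-Fc 7) and -0.088 to 0.33 for C1qc (below 0 without BF10 6). The cause was not tested.

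The median difference of the chains against aCSF1R moved in the higher-sum libraries, to 4.77 in BF10 and 4.42 in IL-10-Fc. Leaving out each library, the exact permutation p for C1qa over C1qb was 0.0321 to 0.407, lowest without control 5, which leaves control with higher-sum libraries only. Permuting labels within each library set, added after seeing the data, gave 0.0278 (adjusted 0.0833). Whether the replicate numbers pair the samples could not be told. Of 7 same-numbered pairs, 2 had a correlation of deviations over 0.1, aCSF1R 4 with IL-10-Fc 4 (0.42) and control 7 with IL-10-Fc 7 (0.35). These were the pairs within 1 library set. The pairs across the sets lay between -0.66 and -0.26, and the check did not take the set into account. With a replicate block the number of pathway genes past the threshold fell from 2, 3 and 2 (aCSF1R against control, BF10 and IL-10-Fc against aCSF1R) to 0, 0 and 0, with fewer residual degrees of freedom, and the chains gave -3.42, 3.27 and 2.89. With the library set as a term the numbers were 6, 8 and 6, and with median-of-ratios scaling added, chosen after seeing the data, 9, 8 and 6. The numbers over all genes moved too: from 88, 114 and 84 to 0, 1 and 1 with the replicate block, to 300, 429 and 328 with the set and to 337, 409 and 276 with both, in the same directions. Depth limits little, as the lowest chain value rests on an estimated 276 reads.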
